A study of Homo sapiens with 24 samples.

Results

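The 36 genes described here encode nuclear subunits of respiratory complex I, the NADH:ubiquinone oxidoreductase of the mitochondrial inner membrane. They were taken by symbol from a list of subunit genes, by a rule that uses no measured value although the list was drawn up with earlier results of these data known, and all 36 were found among the 35587 gene symbols of the tables of both cell lines. The list does not hold every nuclear subunit of the enzyme. RNA was measured in OCI-AML2 and MOLM14, established human acute myeloid leukaemia lines, after 24 h with ARM165, with AZ2 or with DMSO, the solvent control, in 4 libraries for each of the 6 groups (24 in all). The series title names a heterobifunctional degrader and a module of PI3K gamma and AKT, the labels leave unsaid which of the compounds that is, and no dose is given. AML is represented by these lines alone, and the labels do not say whether the 4 libraries of a group came from separate cultures, so the p-values rest on a spread between libraries that could be technical alone.

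Complex I oxidises NADH in the matrix, passes the electrons along iron-sulfur clusters to ubiquinone and couples this to proton pumping across the inner membrane. It is L-shaped, with a matrix arm that holds the redox centres and a membrane arm that holds the pumps. Core subunits carry out catalysis, some encoded in the nucleus and the ND subunits in mitochondrial DNA, while accessory subunits stabilise the enzyme and are needed for its assembly. Acute myeloid leukaemia cells are known for their reliance on oxidative phosphorylation. The 36 genes comprise 15 of the matrix arm, 9 of the part of the membrane arm next to it (proximal), 11 of the far part (distal, NDUFB1 to NDUFB11) and NDUFAB1, the acyl carrier protein that sits in both arms. Of these, 6 encode nuclear core subunits: NDUFV1, NDUFV2, NDUFS1, NDUFS3, NDUFS7 and NDUFS8.

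Values are normalized estimated reads per gene symbol as deposited. Each line has a table with its own scaling, so no level is compared between lines, and no level is compared between genes because values are not per length. The depth, estimated from what 1 read is worth in each library, was 35.4 to 59.0 M reads. All 36 genes passed the filter on low values in both lines, and the coefficient of variation within a group of 4 libraries had a median of 6.73% over their 216 groups (0.774 to 24.5%). PIK3CG, the gene of the catalytic subunit of PI3K gamma, averaged 1239 ± 39.3 in ARM165 and 3084 ± 199 in DMSO libraries of OCI-AML2, and 2200.5 ± 109.8 in ARM165 and 3161 ± 201 in DMSO libraries of MOLM14 (SD, n = 4 each), which is a measure of its RNA and not of its protein. Table totals in MOLM14 were 37302700 to 41186900 in ARM165 libraries and 43274000 to 44963300 in DMSO libraries. All 10 myeloid markers passed the filter in both lines, and no erythroid marker did. The summed level of the myeloid markers was 60838 to 63224 in ARM165 and 101885 to 110304 in DMSO libraries of OCI-AML2, and 66982 to 75182 in ARM165 and 94110 to 101766 in DMSO libraries of MOLM14. Of the 10, 5 fell and 2 rose with ARM165 against DMSO in OCI-AML2 (median log2 change -0.57), and 5 fell and 4 rose in MOLM14 (median -0.015). Beside this, 31.6% of all genes tested fell and 34.2% rose in OCI-AML2 (limma, adjusted p under 0.05). In MOLM14 the shares were 34.0% and 35.5%. LYZ and MPO, granule genes, fell in both lines, while PTPRC, a surface phosphatase of blood cells, and LYN, a kinase, rose in both. In MOLM14 the summed T and NK cell markers were 1808 to 2038 in ARM165 and 673 to 729 in DMSO libraries. CD8A made up 1329 to 1469 of this in ARM165 and 26.6 to 54.2 in DMSO libraries, while CD3D, CD3E, CD3G and CD2 did not pass the filter. Of the 3 markers of this list that passed it in MOLM14, 1 rose and 2 fell, with log2 changes from -0.95 to 5.19. The summed epithelial and fibroblast markers of MOLM14 were 3631 to 3927 in ARM165 and 2085 to 2399 in DMSO libraries. Of these 9 markers, 4 passed the filter in MOLM14. Of the 4, 2 rose and 2 were not called, with log2 changes from -0.67 to 1.41. In OCI-AML2 the T and NK cell markers summed to 549 to 703 in ARM165 and 832 to 958 in DMSO libraries, and the epithelial and fibroblast markers to 33.6 to 52.7 in ARM165 and 43.0 to 75.6 in DMSO libraries, with KRT19 at 0 in all 12 libraries. The B cell markers summed to 41.5 to 93.1 in ARM165 and 81.0 to 133 in DMSO libraries of OCI-AML2, and to 323 to 412 in ARM165 and 555 to 675 in DMSO libraries of MOLM14. The part of any of these shifts in the results below was not tested.

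ARM165 lowered the RNA of most complex I subunit genes in both lines, and AZ2 changed none of them by the test. In OCI-AML2, 22 of 36 fell and 4 rose with ARM165 against DMSO (limma, adjusted p under 0.05), beside 31.6% of all 15377 genes tested that fell and 34.2% that rose. In MOLM14, 27 of 36 fell and 2 rose, beside 34.0% of 15288 genes that fell and 35.5% that rose. The median log2 change of the members was -0.39 in OCI-AML2 and -0.46 in MOLM14, while that of all genes tested was 0.034 and 0.031. In OCI-AML2 the members ranged from -1.48 for NDUFB6 to 0.84 for NDUFS4, and in MOLM14 from -1.51 for NDUFS8 to 0.48 for NDUFS4. Together the members held 0.370 to 0.385% of all values in ARM165 and 0.462 to 0.488% in DMSO libraries of OCI-AML2, and 0.274 to 0.295% in ARM165 and 0.340 to 0.349% in DMSO libraries of MOLM14, so the groups did not overlap in either line. These are bulk libraries of scaled values, so fewer cells of a type and less RNA per cell cannot be told apart, and a change in the total RNA of a cell is not seen. When each library of MOLM14 was scaled to the mean total of its table, the median of all genes moved by 0.19 on the log2 scale, and the split became 25 lower and 8 higher. The members' median relative to that of all genes was -0.42 with the deposited scaling, -0.42 with scaling to totals and -0.32 with quantile normalization in OCI-AML2, and -0.49, -0.49 and -0.36 in MOLM14.

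**Figure D1:**
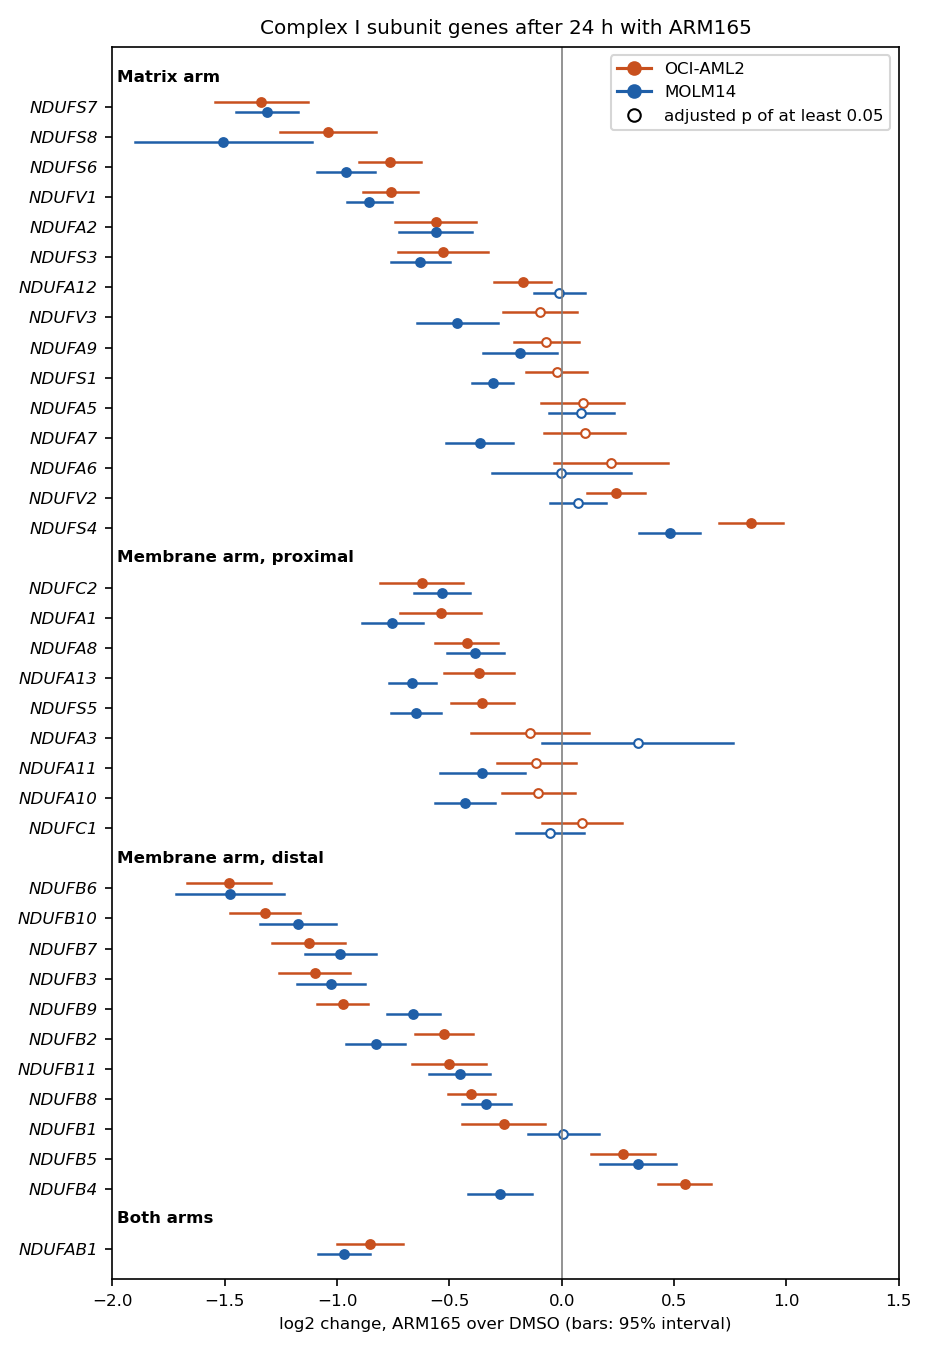
Log2 change with ARM165 over DMSO for each of the 36 complex I genes, grouped by place in the enzyme and ordered by the OCI-AML2 change. Points are estimates from 4 ARM165 and 4 DMSO libraries per line with bars for the 95% interval (without adjustment), filled where the adjusted p was under 0.05; most points lie left of 0 in both lines, and NDUFS4 and NDUFB5 lie right of it in both. With scaling to table totals, NDUFA9, NDUFA12, NDUFC1 and NDUFA6 change sign in MOLM14, and NDUFS1 in OCI-AML2.

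Of the 36 genes, 20 fell in both lines and 2, NDUFS4 and NDUFB5, rose in both. NDUFB4 alone was called in opposite directions, higher in OCI-AML2 and lower in MOLM14. Another 3 were called in OCI-AML2 alone, NDUFV2 as higher and NDUFA12 and NDUFB1 as lower, and 6 were called lower in MOLM14 alone (NDUFV3, NDUFS1, NDUFA7, NDUFA9, NDUFA10 and NDUFA11). NDUFA5, NDUFA6, NDUFA3 and NDUFC1 were called in neither. A call in 1 line alone is no difference between lines; that difference was tested apart and is given further on. The 4 ARM165 libraries all lay below the 4 DMSO libraries for 21 of 36 genes in OCI-AML2, beside 28.8% of all genes tested, and all above for 4, beside 31.7%. In MOLM14 the counts were 26 below, beside 30.7%, and 2 above, beside 33.1%.

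The promoter sequences that follow belong to the genes at the ends of this response: NDUFS8 and NDUFB6 with the largest falls, NDUFS7 as the core gene with the largest fall in OCI-AML2, NDUFS4 with the largest rise, and NDUFB4, whose calls were opposite. Each is the 300-base window around the start of the gene in RefSeq (build GRCh38.p14), 5′ to 3′ on the strand of the gene. Capitals mark exact matches on either strand to the motifs searched, which were the palindromic NRF1 motif, CCGGAAG (the ETS factor GABPA), AAGATGGCG (YY1), GGGCGG (GC box), CCAAT (NF-Y) and CACGTG (E-box).
NDUFS8: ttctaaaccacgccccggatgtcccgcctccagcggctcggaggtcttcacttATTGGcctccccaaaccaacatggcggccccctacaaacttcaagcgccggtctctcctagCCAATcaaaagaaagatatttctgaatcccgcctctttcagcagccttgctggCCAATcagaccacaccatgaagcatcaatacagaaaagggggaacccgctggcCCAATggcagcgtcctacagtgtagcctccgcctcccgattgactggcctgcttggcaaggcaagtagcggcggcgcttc
NDUFB6: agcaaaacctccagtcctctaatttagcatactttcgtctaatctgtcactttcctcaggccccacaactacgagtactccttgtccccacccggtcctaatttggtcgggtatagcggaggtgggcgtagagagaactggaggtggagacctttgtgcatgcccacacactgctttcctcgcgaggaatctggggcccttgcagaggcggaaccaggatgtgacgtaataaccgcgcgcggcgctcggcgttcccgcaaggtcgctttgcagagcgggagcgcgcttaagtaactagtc
NDUFS7: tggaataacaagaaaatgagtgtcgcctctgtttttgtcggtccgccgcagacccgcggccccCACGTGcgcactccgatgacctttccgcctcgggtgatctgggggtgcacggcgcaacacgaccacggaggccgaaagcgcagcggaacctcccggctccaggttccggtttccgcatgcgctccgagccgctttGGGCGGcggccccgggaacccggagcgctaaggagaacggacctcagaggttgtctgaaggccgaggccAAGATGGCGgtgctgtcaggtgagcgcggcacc
NDUFS4: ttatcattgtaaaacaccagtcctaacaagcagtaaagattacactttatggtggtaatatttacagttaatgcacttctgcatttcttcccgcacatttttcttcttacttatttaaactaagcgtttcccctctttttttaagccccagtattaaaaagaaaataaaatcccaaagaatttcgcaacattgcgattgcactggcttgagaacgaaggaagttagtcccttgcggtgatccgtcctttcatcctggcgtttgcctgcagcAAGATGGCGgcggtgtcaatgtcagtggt
NDUFB4: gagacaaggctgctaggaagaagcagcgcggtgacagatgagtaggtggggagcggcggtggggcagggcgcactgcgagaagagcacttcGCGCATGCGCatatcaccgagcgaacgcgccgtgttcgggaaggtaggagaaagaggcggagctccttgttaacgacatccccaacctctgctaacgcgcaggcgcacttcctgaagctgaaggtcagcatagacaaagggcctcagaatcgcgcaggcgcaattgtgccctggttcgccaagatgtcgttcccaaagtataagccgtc
These windows lie at chr11:68030431-68030730 on the plus strand for NDUFS8, chr9:32573110-32573409 on the minus strand for NDUFB6, chr19:1383657-1383956 on the plus strand for NDUFS7, chr5:53560389-53560688 on the plus strand for NDUFS4 and chr3:120596086-120596385 on the plus strand for NDUFB4. The NDUFS8 window holds CCAAT 3 times, first bases at -136, -83 and -30 from the start, and its reverse complement ATTGG at -197. The NDUFS7 window holds CACGTG at -187, GGGCGG at -52 and AAGATGGCG at 18, and the NDUFS4 window holds AAGATGGCG at 22. The NDUFB4 window holds the NRF1 motif, its single run of capitals, at -159, and the NDUFB6 window holds none of these letters. The capital runs do not overlap.

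RefSeq promoters were matched for 32 of the 36 genes, as 39 windows, out of 35116 windows of all genes; NDUFC2, NDUFB9, NDUFB5 and NDUFS5 were not matched. AAGATGGCG was in 6 of the 39 windows (15.4%), those of NDUFA6, NDUFA7, NDUFA9, NDUFB8, NDUFS4 and NDUFS7, against 1.75% of all windows and 3.08% of those of genes tested here. The NRF1 motif was in 2 (5.13%), those of NDUFA8 and NDUFB4, against 1.24% of all windows and 1.80% of those of genes tested. CCGGAAG was in 5 (12.8%), above the 10.3% of all windows and below the 15.4% of genes tested, and CACGTG in 3 (7.69%), above 7.26% of all and below 9.04% of genes tested. GGGCGG was in 26 (66.7%), against 45.0% of all windows and 62.3% of those of genes tested, and CCAAT in 10 (25.6%), against 34.6% and 34.4%. The 6 genes with AAGATGGCG did not all move the same way with ARM165. In OCI-AML2, NDUFS7 and NDUFB8 fell, NDUFS4 rose, and NDUFA6, NDUFA7 and NDUFA9 changed by 0.22, 0.10 and -0.07 without a call. In MOLM14, NDUFS7, NDUFA7, NDUFB8 and NDUFA9 fell, by -1.31, -0.36, -0.34 and -0.19, and NDUFS4 rose by 0.48. NDUFA6 differed there by -0.0018 without a call. A match is a description of letters and not evidence of binding.

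Among the nuclear core subunits of the matrix arm, ARM165 lowered NDUFS7, NDUFS8, NDUFV1 and NDUFS3 in both lines. NDUFS7 carries the terminal iron-sulfur cluster next to the ubiquinone site. It had 1537, 2094, 1792 and 1681 in the ARM165 libraries of OCI-AML2, against 4578, 4153, 4789 and 4347 in DMSO. In MOLM14 it had 2564, 2167, 2733 and 2596 in ARM165, against 6304, 6284, 6317 and 5990.1 in DMSO. The groups were far apart in both lines, with a log2 change of -1.34 (SE 0.096, limma, adjusted p = 5.91e-09) in OCI-AML2 and -1.31 (SE 0.065, adjusted p = 7.43e-11) in MOLM14. NDUFS8, which carries a pair of iron-sulfur clusters upstream of that site, had 1917, 2599.9, 2399 and 2286 with ARM165 in OCI-AML2, against 4823, 4070.2, 5158 and 4832 in DMSO. The MOLM14 libraries had 1413, 858, 1117 and 1439.7 with ARM165, against 4408, 3584, 2908 and 2768 in DMSO. Its groups did not overlap, but the MOLM14 DMSO libraries were widely spread, and the SE of the change there was the largest of all falls called in either line (-1.51, SE 0.19, adjusted p = 2.66e-06) beside -1.04 in OCI-AML2 (SE 0.10).

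NDUFV1, which binds NADH and the flavin, averaged 3242 ± 159 in ARM165 and 5499 ± 266 in DMSO libraries of OCI-AML2, and 2496 ± 114 in ARM165 and 4519 ± 159 in DMSO libraries of MOLM14 (SD, n = 4 each). That is 0.590 and 0.552 times the DMSO level, with no overlap of libraries. NDUFS3, a core subunit at the join of the arms, averaged 1655 ± 119 in ARM165 and 2392 ± 269.97 in DMSO libraries of OCI-AML2, and 1299.7 ± 108 in ARM165 and 2006 ± 16.4 in DMSO libraries of MOLM14. Its ratios were 0.694 and 0.646. NDUFV2 and NDUFS1 did not fall in both lines. NDUFV2, the partner of NDUFV1 with an iron-sulfur cluster, had 7559.6, 7119, 7757 and 8224 with ARM165 in OCI-AML2, against 5963, 6919, 6749.6 and 6297 in DMSO. All 4 ARM165 libraries were higher, and the gene rose by 0.24 (SE 0.061, limma, adjusted p = 0.0024). In MOLM14 the NDUFV2 groups overlapped, at 4875 ± 385 in ARM165 and 4631 ± 193 in DMSO libraries (change 0.072, interval -0.053 to 0.20), and it was called higher there, at 0.26 with scaling to totals and 0.11 with quantile normalization. NDUFS1, the largest iron-sulfur subunit, averaged 3599.7 ± 281 in ARM165 and 3652 ± 231 in DMSO libraries of OCI-AML2, with overlap and a change of -0.022. In MOLM14 NDUFS1 fell, with 3903, 4016, 3877 and 4226 in ARM165 against 4963, 4972, 5056 and 4820.2 in DMSO, a change of -0.31 (adjusted p = 1.12e-05).

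The 9 accessory genes of the matrix arm were divided, and NDUFS4 rose while NDUFS6 and NDUFA2 fell. NDUFS4 encodes a subunit that holds the NADH-oxidising module in place, and its loss is a known cause of Leigh syndrome. It had 5681, 5509, 5945 and 6085 with ARM165 in OCI-AML2, against 3006, 3454, 3243 and 3253 in DMSO. In MOLM14 it had 3654, 3671, 3637 and 4308 with ARM165, against 2846, 2646, 2685 and 2745 in DMSO. No ARM165 library reached down to a DMSO library in either line, and replicate 4 of MOLM14 ARM165 stood above the other 3. The rise was 0.84 in OCI-AML2 (ratio 1.79, SE 0.067, limma, adjusted p = 1.89e-08) and 0.48 in MOLM14 (ratio 1.39, SE 0.063, adjusted p = 5.45e-06). NDUFS6, a zinc-binding subunit of the same module, averaged 6295 ± 187 in ARM165 and 10708 ± 553 in DMSO libraries of OCI-AML2, and 1699 ± 108 in ARM165 and 3308 ± 230.3 in DMSO libraries of MOLM14. NDUFA2, with a thioredoxin-like fold, had nearly the same change in both lines (-0.56 and -0.56). NDUFA12, which takes the place of an assembly factor late in assembly, fell by 0.17 on the log2 scale in OCI-AML2 (adjusted p = 0.017) and differed by -0.010 in MOLM14. The OCI-AML2 call of NDUFA12 was lost in 2 of 19 alternatives, without ARM165 replicate 1 or DMSO replicate 3, where the adjusted p rose to as much as 0.062.

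The other matrix accessory genes moved little in OCI-AML2. NDUFV3, NDUFA7 and NDUFA9 differed there by -0.10, 0.10 and -0.068 without a call. In MOLM14 NDUFV3 fell by 0.46 on the log2 scale and NDUFA7 by 0.36, both with groups that did not overlap. NDUFA7 had 1903, 2176, 2121 and 1773 with ARM165 in OCI-AML2, where its groups overlapped, against 1801, 1813, 1977 and 1818 in DMSO. In the ARM165 libraries of MOLM14 it had 1441, 1521, 1620.5 and 1875, against 2151, 2038, 2126 and 1961 in DMSO. NDUFA9, a subunit of the dehydrogenase family that binds NADPH, fell by 0.19 in MOLM14 with overlapping libraries, and this call (adjusted p = 0.041) was lost in 8 of 19 alternatives, in adjusted p up to 0.129, and in 1 more, scaling to totals, the estimate turned to 0.0039. Of the 8, 7 left out 1 library each. NDUFA5, a subunit of the ubiquinone module, differed by 0.093 in OCI-AML2 (interval -0.091 to 0.28) and 0.087 in MOLM14 (interval -0.057 to 0.23). NDUFA6, which binds the acyl carrier protein, differed by 0.22 in OCI-AML2 (interval -0.033 to 0.47) and -0.0018 in MOLM14 (interval -0.31 to 0.31).

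**Figure D2:**
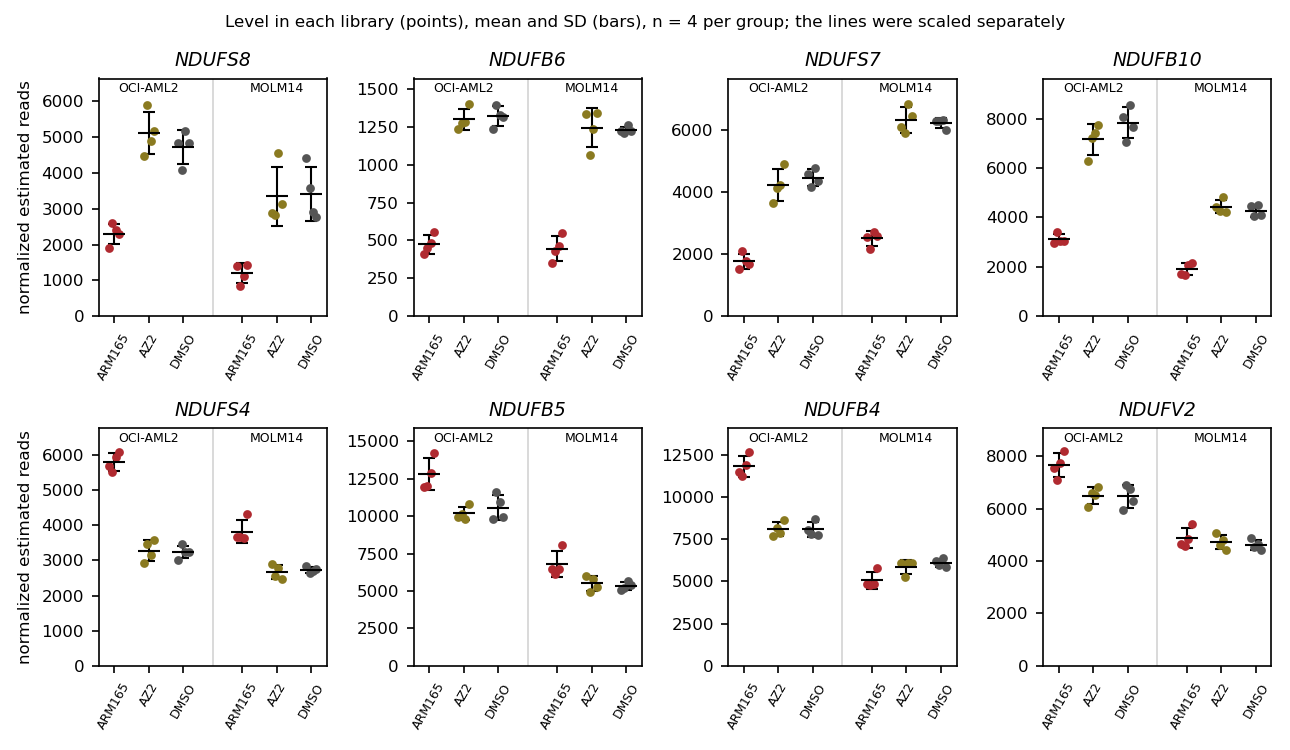
Normalized estimated reads of 8 complex I genes in each of the 24 libraries, with the 3 groups of OCI-AML2 on the left of each panel and those of MOLM14 on the right. Points are libraries and bars the mean and SD of 4; ARM165 libraries lie below AZ2 and DMSO libraries for NDUFS8, NDUFB6, NDUFS7 and NDUFB10 and above them for NDUFS4 and NDUFB5, and for NDUFB4 they lie above in OCI-AML2 alone.

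In the proximal membrane arm, 5 of 9 genes fell with ARM165 in OCI-AML2 and 7 of 9 in MOLM14, and none rose by the test with the deposited scaling. Of all genes tested, 31.6% fell and 34.2% rose in OCI-AML2, and 34.0% fell and 35.5% rose in MOLM14. NDUFA1, a small subunit with a membrane anchor encoded on the X chromosome, averaged 4155 ± 452 in ARM165 and 6024 ± 495 in DMSO libraries of OCI-AML2, and 2570.3 ± 201 in ARM165 and 4334 ± 333 in DMSO libraries of MOLM14. NDUFA13, also known as GRIM-19, averaged 8603 ± 492 in ARM165 and 11103 ± 616 in DMSO libraries of OCI-AML2, and 6417 ± 358 in ARM165 and 10163 ± 78.7 in DMSO libraries of MOLM14. Neither gene had overlapping groups. NDUFS5 and NDUFA8, cysteine-rich subunits on the intermembrane side, fell in both lines, by 0.35 and 0.42 on the log2 scale in OCI-AML2 and by 0.65 and 0.38 in MOLM14. NDUFC2 fell by 0.62 in OCI-AML2 and 0.53 in MOLM14, and it is the only member whose read-through and pseudogene symbols came to more than 5% of its own level (4.60 to 8.61% over the groups), so its reads may be split. NDUFA10, with a nucleoside kinase fold, and NDUFA11 differed by -0.10 and -0.11 in OCI-AML2 without a call and fell by 0.43 and 0.35 in MOLM14. NDUFC1 differed by 0.091 in OCI-AML2 (interval -0.087 to 0.27) and -0.051 in MOLM14 (interval -0.20 to 0.10). NDUFA3 averaged 401 ± 67.9 in ARM165 and 438 ± 15.2 in DMSO libraries of OCI-AML2, and had 293, 310.2, 205 and 199 in the ARM165 libraries of MOLM14, against 190.3, 225, 152 and 222 in DMSO. Its groups overlapped, and the interval of its change was wide (-0.41 to 0.12 in OCI-AML2 and -0.086 to 0.76 in MOLM14).

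The distal membrane arm held 5 of the 8 largest falls in OCI-AML2 and 4 of 8 in MOLM14. Of its 11 genes, 9 fell and 2 rose in OCI-AML2, and 9 fell and 1 rose in MOLM14, with medians of -0.52 and -0.66. The medians of the matrix arm were -0.098 in OCI-AML2 (7 fell and 2 rose of 15) and -0.36 in MOLM14 (10 fell and 1 rose), and those of the proximal arm -0.35 and -0.43; the arms were not tested against each other. The counts of each arm stand beside 31.6% of all genes tested that fell and 34.2% that rose in OCI-AML2. The MOLM14 shares were 34.0% and 35.5%. With scaling to totals the MOLM14 counts were 8 lower and 2 higher in the distal arm, 9 and 4 in the matrix arm and 7 and 2 in the proximal arm. NDUFB6, a single-span subunit of the distal arm, had 409, 452, 481 and 556 in the ARM165 libraries of OCI-AML2, against 1237, 1396, 1327 and 1311 in DMSO. In MOLM14 it had 348, 428, 461 and 549 with ARM165, against 1219, 1209, 1261 and 1222 in DMSO. Its ARM165 libraries stayed below the DMSO libraries by a wide gap in both lines, at a ratio of 0.359 in OCI-AML2 (SE of the log2 change 0.088, limma, adjusted p = 6.00e-10) and 0.359 in MOLM14 (SE 0.11, adjusted p = 1.03e-08). NDUFB10, a cysteine-rich subunit on the intermembrane side, had 2983, 3410.5, 3061 and 3069 with ARM165 in OCI-AML2, against 8049, 7064, 8566 and 7678 in DMSO. The MOLM14 libraries had 1713, 1664, 2086 and 2145 with ARM165, against 4476, 4053, 4489.97 and 4082 in DMSO. The groups again did not overlap, and the log2 changes were -1.32 and -1.18.

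NDUFB3, in which mutations are a known cause of complex I deficiency, averaged 1955 ± 144 in ARM165 and 4200.1 ± 412 in DMSO libraries of OCI-AML2, and 1732 ± 193 in ARM165 and 3520.3 ± 197 in DMSO libraries of MOLM14. NDUFB7, another cysteine-rich subunit, averaged 2112 ± 153 in ARM165 and 4613 ± 313 in DMSO libraries of OCI-AML2, and 2109 ± 225 in ARM165 and 4163 ± 126 in DMSO libraries of MOLM14. The groups of both genes were separate, and NDUFB3 changed by -1.10 and -1.03 and NDUFB7 by -1.13 and -0.99 in OCI-AML2 and MOLM14. NDUFB9, which binds an acyl carrier protein, had 12249.9, 11221, 12258 and 12008 with ARM165 in OCI-AML2, against 22949, 23671, 24156 and 23022 in DMSO. In MOLM14 NDUFB9 had 6728, 6685, 7155 and 7819 with ARM165, against 11163, 10709, 11566 and 11364 in DMSO. Its groups were separate in both lines, with ratios of 0.509 and 0.633. NDUFB2, NDUFB11 and NDUFB8 fell by 0.52, 0.50 and 0.40 in OCI-AML2 and by 0.83, 0.45 and 0.34 in MOLM14, all with separate groups. NDUFB1 fell by 0.26 in OCI-AML2 with overlapping libraries (adjusted p = 0.016), a call lost without ARM165 replicate 2 or DMSO replicate 2, with an adjusted p of up to 0.054 over its 19 alternatives. In MOLM14 NDUFB1 differed by 0.0065 (interval -0.15 to 0.16).

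Against this, NDUFB5 rose in both lines and NDUFB4 in OCI-AML2. NDUFB5 had 11962, 12042, 12910.4 and 14249.6 with ARM165 in OCI-AML2, against 9836, 11594, 10940.5 and 9931 in DMSO. The MOLM14 libraries had 6464, 6125, 6489.7 and 8064 with ARM165, against 5079.6, 5203, 5645 and 5411 in DMSO. The lowest ARM165 library was above the highest DMSO library in both lines, and the changes were 0.27 (SE 0.067, limma, adjusted p = 0.0019) and 0.34 (SE 0.080, adjusted p = 0.0014). NDUFB4, another accessory subunit of the distal arm, had 11473, 11252, 11900.00 and 12649 with ARM165 in OCI-AML2, against 8061, 7829, 8703 and 7759.7 in DMSO. In MOLM14 it had 4827, 4765, 4843 and 5819 with ARM165, against 6235, 5966, 6369 and 5858 in DMSO. The ARM165 libraries were all higher in OCI-AML2 (change 0.55, adjusted p = 3.12e-07) and all lower in MOLM14 (change -0.27, adjusted p = 0.0018), where replicate 4 came close to the DMSO libraries. The MOLM14 fall of NDUFB4 was -0.08 and no longer called with scaling to totals, where its adjusted p was 0.14, the highest of its 19 alternatives. NDUFAB1, which carries acyl chains in mitochondrial fatty acid synthesis and takes part in iron-sulfur cluster assembly besides its place in complex I, averaged 5542 ± 341 in ARM165 and 10017 ± 809 in DMSO libraries of OCI-AML2, and 3185 ± 255 in ARM165 and 6225 ± 254 in DMSO libraries of MOLM14. It fell by 0.85 and 0.97 on the log2 scale, with no overlap.

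AZ2 left the complex I genes close to their DMSO levels in both lines. By limma with Benjamini-Hochberg adjustment, 0 of 36 genes were called in OCI-AML2, beside 0.00650% of all genes tested called higher and 0.104% called lower, and 0 had an unadjusted p under 0.05. In MOLM14, 0 of 36 were called, beside 0% of all genes tested, and 2 had an unadjusted p under 0.05, NDUFA13 and NDUFA2 (lowest adjusted p 0.67). The members' log2 changes ranged from -0.19 to 0.11 in OCI-AML2 and from -0.08 to 0.18 in MOLM14. The medians were -0.050 in OCI-AML2, where 27 of 36 estimates were below 0, and 0.054 in MOLM14, where 29 of 36 were above 0. NDUFA13 averaged 11241 ± 655 in AZ2 and 10163 ± 78.7 in DMSO libraries of MOLM14, a difference of 0.14 (interval 0.040 to 0.25) that did not pass the adjusted test. NDUFA2 averaged 1935 ± 78.4 in AZ2 and 1714 ± 101 in DMSO libraries of MOLM14. The AZ2 libraries lay wholly above the DMSO libraries for 4 genes in MOLM14 (NDUFA2, NDUFA7, NDUFA13 and NDUFB1), beside 1.82% of all genes tested, and wholly below for 0, beside 2.61%. In OCI-AML2 both counts were 0, beside 1.18% and 1.48%.

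None of the core genes was called with AZ2. In OCI-AML2 the estimates were 0.0079 for NDUFV1, 0.0046 for NDUFV2, -0.054 for NDUFS1, 0.0016 for NDUFS3, -0.085 for NDUFS7 and 0.11 for NDUFS8. In MOLM14 they were 0.058, 0.031, -0.0059, 0.084, 0.021 and -0.033 in the same order. NDUFS4 had 2929, 3475, 3153 and 3566 with AZ2 in OCI-AML2 and 2887, 2554, 2778 and 2479.6 in MOLM14. These libraries overlapped the DMSO libraries in both lines. The interval of the NDUFS4 difference from DMSO was -0.13 to 0.16 in OCI-AML2 and -0.17 to 0.10 in MOLM14, and that of NDUFB6 was -0.21 to 0.16 and -0.23 to 0.25. An estimate without a call does not show that AZ2 and DMSO act alike.

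Set directly against AZ2, ARM165 gave lower levels of 21 genes and higher levels of 5 in OCI-AML2, beside 31.4% and 34.5% of all genes tested. In MOLM14, 27 were lower and 2 higher, beside 34.0% and 36.1%. The libraries of both compounds were separate for 21 lower and 4 higher genes in OCI-AML2, beside 28.6% and 32.8% of all genes tested, and for 25 and 2 in MOLM14, beside 30.3% and 33.3%. These comparisons use the same ARM165 libraries as those against DMSO, so the values are given side by side. NDUFS7 differed by -1.25 from AZ2 and -1.34 from DMSO in OCI-AML2, and by -1.33 and -1.31 in MOLM14. NDUFB6 differed by -1.46 from AZ2 in OCI-AML2 (SE 0.088, limma, adjusted p = 7.29e-10) and by -1.49 in MOLM14 (SE 0.11, adjusted p = 8.98e-09). Its AZ2 libraries had 1237, 1275, 1281 and 1399 in OCI-AML2 and 1332, 1064, 1236 and 1339 in MOLM14, so no ARM165 library came near them. NDUFS4 was higher than with AZ2 by 0.83 in OCI-AML2 and 0.51 in MOLM14, and NDUFB5 by 0.33 and 0.29. NDUFV1, NDUFS3 and NDUFS8 differed by -0.77, -0.53 and -1.15 in OCI-AML2 and by -0.91, -0.71 and -1.47 in MOLM14, all called lower. NDUFV2 was higher by 0.24 in OCI-AML2 and differed by 0.041 without a call in MOLM14, and NDUFS1 differed by 0.032 without a call in OCI-AML2 and was lower by 0.30 in MOLM14. Doses are not given, so the compounds are not compared at a known dose. With scaling to totals the MOLM14 split was 25 lower and 7 higher, and 6 estimates changed sign: NDUFB4, NDUFA5, NDUFA12, NDUFC1, NDUFB1 and NDUFA6.

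**Figure D3:**
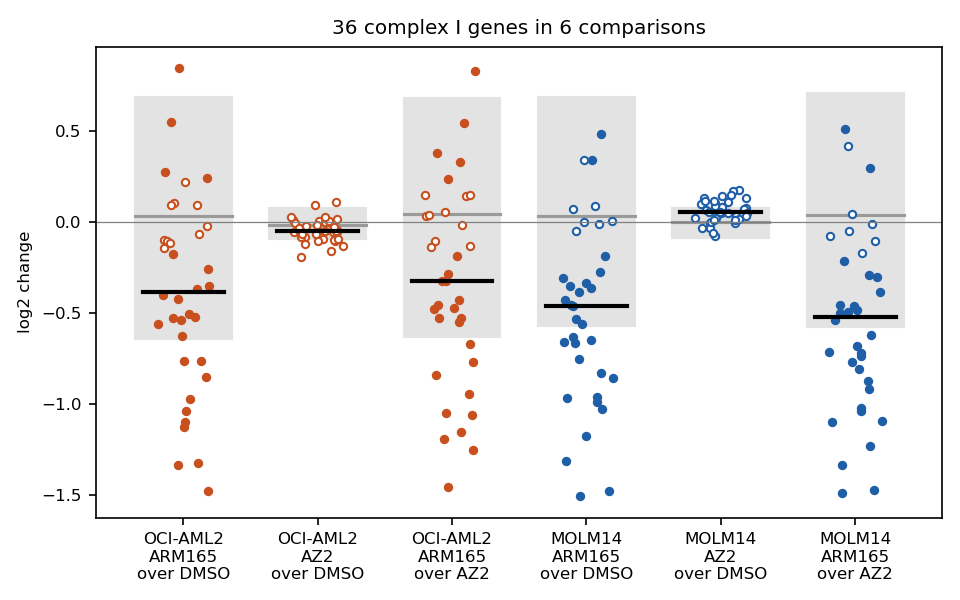
Log2 changes of the 36 complex I genes in the 3 comparisons of each line (OCI-AML2 left, MOLM14 right), 1 point per gene, filled where the adjusted p was under 0.05. Black bars mark the members' median, and the grey boxes and lines the interquartile range and median of all genes tested; the members' median lies below 0 in the 4 comparisons that hold ARM165 and within 0.1 of 0 for AZ2 over DMSO.

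Most of these genes moved the same way with ARM165 in both lines, and NDUFB4 alone was called in opposite directions. Across the 36 genes the OCI-AML2 and MOLM14 changes had a Pearson r of 0.89 (Spearman rho 0.89), and 30 of 36 (83.3%) had the same sign; across all 14287 genes kept in both lines r was 0.72, with 77.8% of the same sign. These correlations run across genes that share the libraries of each line, so they are a description. The change was tested for a difference between the lines in 1 fit of all 24 libraries. The OCI-AML2 change was above the MOLM14 change for 9 of 36 genes and below it for 1, beside 24.3% and 18.1% of all genes tested. The split depends on scaling: it was 3 above and 11 below with scaling to totals, which moved the median of all genes by -0.16, and 10 above and 3 below with quantile normalization. Relative to the median of all genes, the members' median difference was 0.065, 0.064 with scaling to totals and 0.034 with quantile normalization.

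4 of the 10 differences kept their call in all 30 alternatives: NDUFB4, NDUFS4, NDUFA7 and NDUFB9. The difference (OCI-AML2 minus MOLM14) was 0.82 for NDUFB4 (SE 0.088, limma, adjusted p = 6.85e-08), from changes of 0.55 and -0.27. For NDUFA7 it was 0.47 (SE 0.11, adjusted p = 0.0017), from 0.10 and -0.36. NDUFS4 rose more in OCI-AML2, by 0.36 (SE 0.093, adjusted p = 0.0029). NDUFB9 fell more in OCI-AML2, with a difference of -0.31 (SE 0.076, adjusted p = 0.0017). NDUFS1, NDUFB2, NDUFS5, NDUFA10, NDUFA13 and NDUFV3 had differences of 0.28, 0.31, 0.30, 0.33, 0.30 and 0.37, with OCI-AML2 estimates nearer to 0 than those of MOLM14, and all 6 calls were lost with scaling to totals. By place in the enzyme, and beside the same 24.3% above and 18.1% below of all genes, the calls were 4 above and 0 below in the matrix arm, 3 and 0 in the proximal arm and 2 and 1 in the distal arm. With scaling to totals these splits were 2 and 1 in the matrix arm, 0 and 2 in the proximal arm and 1 and 8 in the distal arm. The core genes other than NDUFS1 were not called, with differences of 0.095 for NDUFV1, 0.17 for NDUFV2, 0.10 for NDUFS3, -0.025 for NDUFS7 and 0.47 for NDUFS8. With scaling to totals the estimates of NDUFV1 and NDUFS3 were -0.064 and -0.056. For NDUFS8 the interval was wide (-0.014 to 0.95). For NDUFB6 the difference was -0.0036 (interval -0.31 to 0.30).

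For AZ2, 0 of 36 genes differed between the lines in either direction by limma, beside 0% of all genes tested above and 0.0280% below, and 2 had an unadjusted p under 0.05, NDUFS6 and NDUFA2. The members' median difference was -0.10, and 32 of 36 estimates lay below 0. NDUFS6 and NDUFA2 had differences of -0.22 and -0.28 (adjusted p = 0.86 and 0.88). For the core genes the differences ran from -0.11 for NDUFS7 to 0.14 for NDUFS8, with -0.050 for NDUFV1, -0.026 for NDUFV2, -0.048 for NDUFS1 and -0.082 for NDUFS3.

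**Figure D4:**
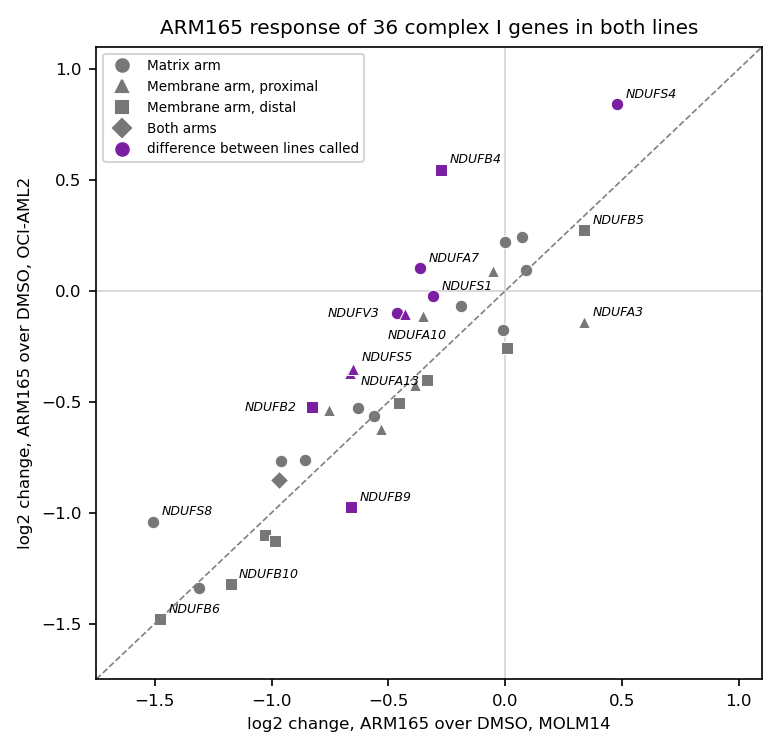
Log2 change with ARM165 over DMSO of the 36 complex I genes, OCI-AML2 on the vertical and MOLM14 on the horizontal axis, with the shape giving the place in the enzyme and the dashed line equal changes. Purple marks the 10 genes whose changes differed between the lines with the deposited scaling (3 above and 11 below with scaling to totals); NDUFB4, NDUFA7 and NDUFS4 lie above the line and NDUFB9 below it.

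Most genes of 4 related lists also fell with ARM165, the regulators of OCI-AML2 aside. Of 18 assembly factors, 12 fell and 1 rose with ARM165 in OCI-AML2 (median -0.30), beside 31.6% and 34.2% of all genes tested. In MOLM14, 15 fell and 1 rose (median -0.43), beside 34.0% and 35.5%. DMAC1, a factor for the distal membrane arm, averaged 647 ± 52.2 in ARM165 and 1510.4 ± 63.9 in DMSO libraries of OCI-AML2, and 348 ± 38.6 in ARM165 and 763 ± 60.8 in DMSO libraries of MOLM14. ACAD9, an acyl-CoA dehydrogenase family protein needed for assembly, changed by -0.99 in OCI-AML2 and -1.08 in MOLM14. NDUFAF7, a methyltransferase that acts on the enzyme, rose by 0.54 in OCI-AML2 (limma, adjusted p = 2.48e-04) and fell by 0.27 in MOLM14, and NDUFAF5 rose by 0.42 in MOLM14.

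Of the 7 ND genes of mitochondrial DNA, 6 fell in OCI-AML2 and 0 rose (median -0.62), beside 31.6% and 34.2% of all genes tested. In MOLM14, 6 fell and 1 rose (median -0.31), beside 34.0% and 35.5%. The count of falls in MOLM14 was 2 with quantile normalization and 4 with scaling to totals. MT-ND5, a proton-pumping core subunit, averaged 122366 ± 9147 in ARM165 and 213945 ± 7695 in DMSO libraries of OCI-AML2, and 126900.00 ± 4230.3 in ARM165 and 202128 ± 2467 in DMSO libraries of MOLM14. MT-ND3 changed by -0.75 in OCI-AML2 and MT-ND6 by -0.63 in MOLM14. MT-ND1, next to the ubiquinone site, rose by 0.13 in MOLM14 (adjusted p = 0.033) and differed by -0.078 in OCI-AML2 without a call. With AZ2, 0 of 7 were called in either line, and 5 had an unadjusted p under 0.05 in MOLM14, all with estimates above 0 (median 0.13).

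Of 38 nuclear subunits of complexes II to V, 32 fell and 2 rose in OCI-AML2 (median -0.52), beside 31.6% and 34.2% of all genes tested. In MOLM14, 36 fell and 0 rose (median -0.60), beside 34.0% and 35.5%. The MOLM14 counts were 31 and 2 with scaling to totals. The largest fall in both lines was that of ATP5MC1, a gene of the rotor ring of ATP synthase, at -1.58 in OCI-AML2 and -1.81 in MOLM14. ATP5F1A, the alpha subunit of the same enzyme, changed by -1.08 in OCI-AML2, and ATP5MF by -1.32 in MOLM14. SDHC, a membrane anchor of complex II, and ATP5F1E rose by 0.37 and 0.30 in OCI-AML2.

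Of 10 regulators of mitochondrial biogenesis that passed the filter (PPARGC1A did not), 5 fell and 4 rose in OCI-AML2 (median -0.19). The shares of all genes tested there were 31.6% and 34.2%. In MOLM14, 7 fell and 1 rose (median -0.79), beside 34.0% and 35.5%. The MOLM14 counts were 6 and 3 with scaling to totals. PPARGC1B, a coactivator of nuclear respiratory genes, averaged 191 ± 29.3 in ARM165 and 663 ± 41.3 in DMSO libraries of OCI-AML2, and 444 ± 46.1 in ARM165 and 979 ± 58.7 in DMSO libraries of MOLM14. TFB2M, a factor of mitochondrial transcription, changed by -0.95 and -1.23, and PPRC1, a coactivator related to PPARGC1B, by -0.71 and -1.30. GABPB1 and GABPA, which together form an ETS-type activator of respiratory genes, rose by 1.00 and 0.84 in OCI-AML2. In MOLM14 GABPB1 rose by 0.21 and GABPA fell by 0.20. The OCI-AML2 change was above that of MOLM14 for 8 of the 10 regulators and below for 1 (5 and 1 with scaling to totals). Among all genes tested, 24.3% were above and 18.1% below with the deposited scaling. No gene of these 4 lists was called with AZ2 in either line by limma.

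**Figure D5:**
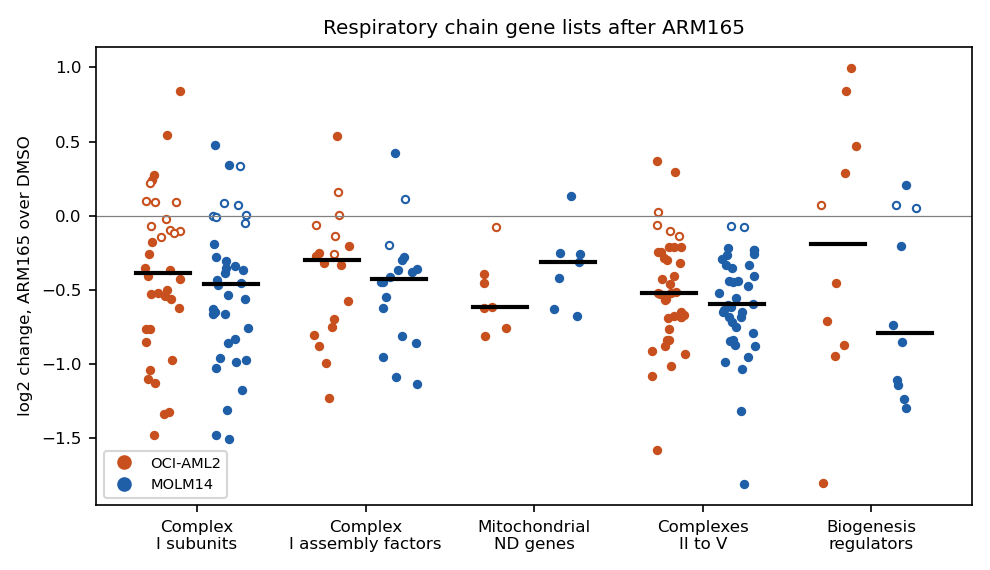
Log2 change with ARM165 over DMSO for the complex I genes and 4 related lists, OCI-AML2 left and MOLM14 right in each pair, 1 point per gene, filled where the adjusted p was under 0.05, with bars at the median. The median is below 0 for every list in both lines with the deposited scaling, from -0.79 for the regulators in MOLM14 to -0.19 for the regulators in OCI-AML2.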

How the data were processed

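RNA was sequenced from 24 libraries with a stranded mRNA kit, per the labels' protocols. The authors deposited 1 table per cell line of normalized estimated counts per gene symbol, treated here as a signal on a scale of its own; kallisto is named in the submitters' processing notes, without a version. The scaling method, genome build and annotation are not given in the sources used here. Only 14.7 to 15.8% of the values of a library were whole reads within 0.01, so no count test was used.

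The log2 of value plus 1 was fitted per line with limma 3.58.1 (trend, R 4.3.3) over 3 groups of 4 libraries, after keeping symbols at 10 or more in at least 4 of 12 libraries. For the difference between lines, all 24 libraries entered 1 fit of the 14287 symbols kept in both. P-values are two-sided and Benjamini-Hochberg adjusted over all symbols tested, with calls at adjusted p under 0.05. Log2 changes and folds are on the scale of value plus 1. The fit was also run on simulated data in which few genes changed and the scaling was left alone. That run does not check the calls made here, where many genes changed and the scaling mattered. Depth, 35.4 to 59.0 M reads, is an estimate, so no counting interval is given.

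The members and lists were chosen with earlier results of these data known, and list counts are descriptions. By the rule for named genes, all nuclear core subunits were described, with the 8 largest falls, all rises, the 4 smallest changes and the 8 clearest line differences; other members were named to account for each. Libraries with the same replicate number deviated together weakly at most (0 of 12 pairs of a line had a correlation over 0.1), so the numbers were not used as pairs. Their median correlation was 0.019 in MOLM14 and 0.011 in OCI-AML2, against -0.0074 and -0.0050 for pairs with other numbers. Alternatives were a pseudocount of 5, no filter or a minimum of 50, quantile normalization, scaling to the mean total, a replicate block, fits of only the groups compared and leaving out each library.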

Additional observations from a re-analysis of the deposited data

Results flagged for a closer look

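In 9 of 216 groups of 4 libraries (4.17%), 1 library stood apart from the other 3, where chance gives about 1 in 20. In MOLM14, ARM165 replicate 4 was high for NDUFS4, at 4308.35 against 3637 to 3671 in the others, and for NDUFB4, at 5819.35 against 4765 to 4843. NDUFS7 was low in MOLM14 DMSO replicate 4, at 5990.08 against 6284 to 6317. NDUFB4 was low in MOLM14 AZ2 replicate 2, at 5241.22 against 6078 to 6079. In OCI-AML2, NDUFV3 was low in ARM165 replicate 3, at 2715.51 against 3267 to 3375. NDUFA5 was low in AZ2 replicate 3, at 4624.65 against 5337 to 5482. NDUFA7 was high in AZ2 replicate 4, at 2113.1 against 1660.3 to 1732, and in DMSO replicate 3, at 1977.13 against 1801 to 1818. NDUFA9 was high in AZ2 replicate 4, at 3855.86 against 3185 to 3285.

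The change with ARM165 differed between the lines for 10 genes in the fit of all libraries (OCI-AML2 minus MOLM14, limma, Benjamini-Hochberg adjusted). Among all genes tested, 24.3% were called above and 18.1% below, beside 9 and 1 of the 36 members. The difference was 0.82 for NDUFB4, 0.47 for NDUFA7, 0.37 for NDUFV3, 0.36 for NDUFS4, 0.33 for NDUFA10, 0.31 for NDUFB2, 0.30 for NDUFA13, 0.30 for NDUFS5, 0.28 for NDUFS1 and -0.31 for NDUFB9. The high NDUFS4 and NDUFB4 values of MOLM14 ARM165 replicate 4 enter these differences, and both calls remained in all 30 alternatives, that without this library included. The calls of NDUFV3, NDUFA10, NDUFB2, NDUFA13, NDUFS5 and NDUFS1 were lost with scaling to totals.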

How the results depend on the processing

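Of 10440 alternative values, 10274 stayed the same. For a gene this meant its side of the threshold and, where called, its direction. For medians it meant a move by less than the replicate SD of a typical member, with a wider limit for the line differences. For counts it meant a change of no more than 1.5 times. Many of these values belong to AZ2 against DMSO and its line difference, where no member was near a call, so the tally says little about the ARM165 line difference. For that difference, 4 of 10 calls were kept in all 30 alternatives, and 13 other members gained a call in some alternative. With each library scaled to the mean total of its table, 8 members rose in MOLM14 against DMSO and 7 against AZ2, in place of 2 each, and the line difference was 3 above and 11 below in place of 9 and 1; with quantile normalization 3 were below. The same scaling reversed NDUFA9 (0.0039), NDUFA12 (0.18) and NDUFC1 (0.14) against DMSO in MOLM14, and NDUFA5 (0.20), NDUFA12 (0.14), NDUFC1 (0.17) and NDUFB4 (0.00054) against AZ2, each called under the deposited scaling, under totals or both. Estimates called under neither also turned, NDUFA6 against DMSO (0.19), NDUFB1 (0.11) and NDUFA6 (0.046) against AZ2, and in OCI-AML2 NDUFS1 against DMSO (0.011) and NDUFA10 against AZ2 (0.0041); the table totals of ARM165 libraries are lower in MOLM14, and the deposited scaling could not be checked. Leaving out each library in turn gave 4 higher and 21 to 22 lower in OCI-AML2 and 2 higher and 26 to 27 lower in MOLM14 for ARM165 against DMSO, 5 to 7 and 20 to 22, and 2 to 3 and 27 to 28, against AZ2, and 9 to 10 above and 1 to 2 below for the line difference. The second gene below was NDUFB1 without MOLM14 ARM165 replicate 1 or 2 or OCI-AML2 DMSO replicate 1, and NDUFA12 without MOLM14 DMSO replicate 1. No member was called for AZ2 against DMSO, or for its difference between lines, under any alternative run. The replicate block gave 4 higher and 22 lower in OCI-AML2 and 2 higher and 27 lower in MOLM14 for ARM165 against DMSO. It gave 5 and 20, and 3 and 27, against AZ2, and 9 and 1 for the line difference. Libraries with the same number had correlations from -0.037 to 0.056. Depth limits are not known beyond the estimate, and NDUFS8 and NDUFA3 varied most between libraries, both in MOLM14, with a coefficient of variation within a group of up to 24.5%.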

Other observations

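NDUFA4 and NDUFA4L2 carry complex I names, but NDUFA4 is a subunit of complex IV and NDUFA4L2 its paralogue. NDUFA4 fell with ARM165, at 1828 ± 71.7 in ARM165 and 2667 ± 435 in DMSO libraries of OCI-AML2, and 1069 ± 161 in ARM165 and 1516 ± 123 in DMSO libraries of MOLM14 (SD, n = 4 each). NDUFA4L2 rose, with 224, 544, 506 and 462 in ARM165 and 72.5, 116, 17.8 and 9.08 in DMSO libraries of OCI-AML2, and 2096, 1732, 1691 and 1949 in ARM165 and 584, 670.2, 543 and 658 in DMSO libraries of MOLM14. The log2 changes of NDUFA4L2 were 3.53 and 1.60 (limma, adjusted p = 4.52e-04 and 4.60e-09).

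All mitochondrially encoded symbols together held 5.02 to 5.91% of the values in ARM165 and 7.20 to 8.11% in DMSO libraries of OCI-AML2, and 4.49 to 5.08% in ARM165 and 5.07 to 5.45% in DMSO libraries of MOLM14, where the ranges overlap.

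Across the 36 members the change with ARM165 was lower for transcripts with more G and C, with a Pearson r of -0.45 in OCI-AML2 and -0.46 in MOLM14, against -0.062 and -0.064 over all genes with a value. It was higher for genes with a longer span in the genome, with r of 0.37 and 0.34, against 0.074 and 0.11 over all genes. Transcript length and promoter G and C were also looked at, and their correlations were weaker. For length r was 0.19 in OCI-AML2 and 0.14 in MOLM14, and for promoter G and C, over 32 members, -0.21 and -0.27. Transcript values are those of the longest protein-coding transcript of each gene. The members are not independent of each other in these libraries, and the points of both lines share the same genes, so these values are a description.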
